A study of Mus musculus with 2 samples.

Results

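The axon guidance and adhesion genes examined here are 10 named genes that act when olfactory axons are sorted and reach their targets: Nrp1, Nrp2, Plxna1, Sema3a, Sema3f, Slit1, Kirrel2, Epha5, Efna5 and Ncam1. They were chosen by name, with earlier results of these data known. They are 10 of 21755 protein-coding genes that GENCODE M21 places on chromosomes 1 to 19 and X of GRCm38. All 10 were found and all 10 lie between the first and the last boundary of their chromosome. The measurements are the positions of 7435 chromatin boundaries, 5 kb wide each, from in situ Hi-C, an assay that ligates and sequences pairs of DNA ends lying close together in the nucleus. The cells were mature olfactory sensory neurons expressing Olfr16 (MOR23), an odorant receptor gene. They came from adult, untreated mice of mixed sex that carry a MOR23-GFP reporter, were taken by flow sorting from olfactory epithelium and were fixed with 1% formaldehyde; the labels do not specify the strain. There was 1 group with 2 biological replicates, 28000 and 24400 cells, and the labels do not give the number of animals.

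The boundaries were called on both replicates combined, so no boundary has a value per replicate, its depth is unknown, and no spread between replicates can be set beside any distance below. The list has no expression values, and the sorted cell type could not be checked against its markers. Each boundary carries the authors' class, Strong (3854) or Weak (3581), and the authors' score of its strength, which runs from 0.200 to 4.38 with a median of 0.520 and is used here only to describe and rank boundaries within the list. A boundary is a position that fewer contacts cross than positions around it, and the stretch between adjacent boundaries is called an interval; 7415 such intervals had a median length of 260 kb (quartiles 180 and 395 kb).

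Axons of olfactory sensory neurons that express the same odorant receptor gather into common glomeruli of the olfactory bulb. Neuropilins are receptors for secreted class 3 semaphorins and signal together with plexins; they take part in placing axons along the axes of the bulb, as do the Slit ligands through Robo receptors. Kirrel proteins, EphA receptors and ephrin-A ligands act locally among axons, by adhesion or repulsion, and NCAM is an adhesion protein of olfactory axons in general.

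The sequences shown first lie close to a boundary: for Nrp1 and Efna5, which both started within 5 kb of a Strong one, the 250 bases before the GENCODE start, 5′ to 3′ along the gene, read from the GRCm38 reference genome. Capitals mark the GC box, GGGCGG or its reverse complement CCGCCC.
Nrp1 (chr8:128358354-128358603, + strand): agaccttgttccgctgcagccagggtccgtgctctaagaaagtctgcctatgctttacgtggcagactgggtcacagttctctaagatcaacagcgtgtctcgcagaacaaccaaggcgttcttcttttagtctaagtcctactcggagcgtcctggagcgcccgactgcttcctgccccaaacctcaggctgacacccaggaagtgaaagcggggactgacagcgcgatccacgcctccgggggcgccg
Efna5 (chr17:62881318-62881567, - strand): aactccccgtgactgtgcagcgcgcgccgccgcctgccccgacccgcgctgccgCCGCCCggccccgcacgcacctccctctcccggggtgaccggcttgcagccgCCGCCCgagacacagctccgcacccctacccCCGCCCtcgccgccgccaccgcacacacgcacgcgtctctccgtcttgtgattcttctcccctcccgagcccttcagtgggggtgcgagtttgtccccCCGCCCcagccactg

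Efna5 had 4 GC boxes in this window and Nrp1 had 0. This window was examined for 8 of the 10 genes, and 4 of these 8 (Nrp2, Slit1, Epha5 and Efna5) held the box, where 39.5% of 21540 protein-coding genes held it in the same window. The median GC content of the window was 63.6% for the 8 genes and 54.0% for all protein-coding genes. The LIM homeodomain core TAATTA was found, among these 8, only in the window of Epha5, and in 4.93% of all windows. Both strands were searched, and a match describes letters in this window, not a bound site.

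The 10 genes fell into distinct arrangements. The starts of Ncam1, Nrp1, Efna5 and Plxna1 were 1.08, 3.60, 3.68 and 7.38 kb from a boundary, and in all 4 cases the boundary lay upstream of the start. Nrp2 followed at 13.3 kb and Slit1 at 36.3 kb, also with the boundary upstream. Kirrel2 and Sema3f lay at 92.3 and 159.5 kb, inside gene-rich intervals. Epha5 and Sema3a were the farthest, at 362 and 525 kb, in intervals over 1 Mb long. The 4 of 10 starts within 10 kb stand beside 12.5% of all 21544 protein-coding starts between the first and last boundaries. Within 5 kb there were 3 of the 10 (8.35% of protein-coding starts), within 25 kb 5 (24.8%) and within 50 kb 6 (44.3%), and with Strong boundaries only 3 lay within 10 kb (7.94%). Protein-coding starts within 10 kb of a boundary that lies upstream were 5.15% of the total. None of the 10 started inside a boundary, where 3.29% of protein-coding starts did; a count of 0 of 10 allows a share of up to 30%. The median distance was 24.8 kb for the 10 genes and 57.8 kb for all protein-coding starts. These are counts over 10 genes picked by name with no test behind them, so they cannot show whether anything here is particular to these genes.

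**Figure D1:**
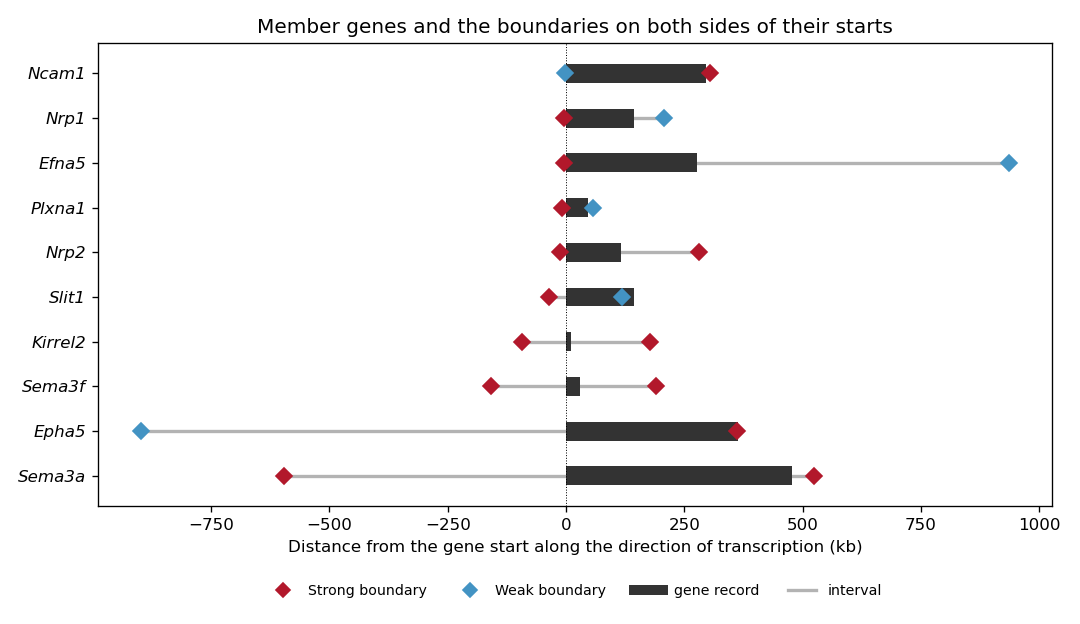
Each row is a gene drawn from its start at 0 along the direction of transcription, in kb. The black bar is the gene record, the grey line the interval between the adjacent boundaries, and diamonds the boundaries, red for Strong and blue for Weak. In Ncam1, Nrp1, Efna5 and Plxna1 a boundary sits within 10 kb before the start, whereas Epha5 and Sema3a start deep inside intervals of 1260 and 1120 kb.

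**Figure D2:**
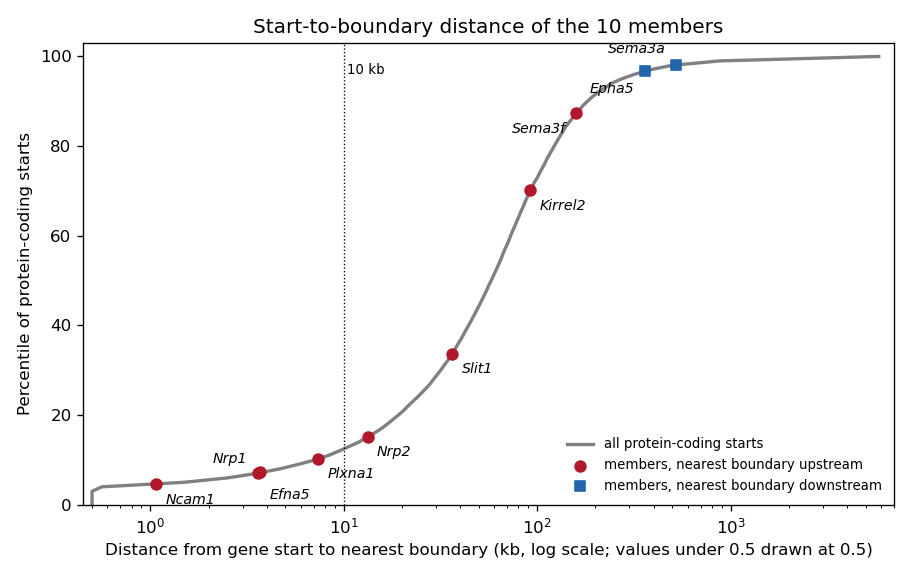
The distance from gene start to nearest boundary in kb (x, log scale) is plotted against its percentile among 21544 protein-coding starts (y). The grey line is the distribution of all protein-coding starts, points are the 10 genes, and the dotted line marks 10 kb; Ncam1 is at percentile 4.6 and Sema3a at 98.2.

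The receptors Nrp1, Nrp2 and Plxna1 each had a Strong boundary before the start, at 3.60, 13.3 and 7.38 kb. Nrp1, a receptor of Sema3a, lies on chromosome 8 (128358604 to 128503363, + strand, 145 kb). Its upstream boundary, at 128350001 to 128355000, scored 0.960, at or above 74.7% of the list, and overlapped no annotated gene. The next boundary downstream, 206 kb from the start and 61.6 kb past the gene end, was Weak with a score of 0.303. The 210 kb between them held no other protein-coding start, only that of the microRNA gene Mir1903, 637 bases after the start of Nrp1. Nrp2, the receptor that pairs with Sema3f, lies on chromosome 1 (62703285 to 62818695, + strand, 115 kb). Both of its boundaries were Strong and scored 0.903 upstream (62685001 to 62690000, intergenic) and 0.751 downstream (62985001 to 62990000, in an intron of Ino80d). Nrp2 was the only protein-coding gene to start in its interval of 295 kb.

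The neuropilins also resembled each other in the protein-coding gene next before them, though not in its distance. The next protein-coding start before Nrp1 was that of Pard3, and before Nrp2 that of Pard3b, a paralogue of Pard3; both encode partitioning-defective polarity proteins and were named after their positions were seen. In both pairs the genes run on the + strand. The 61.0 kb between the end of Pard3b and the start of Nrp2 held 1 boundary, the Strong one scored 0.903. Between the end of Pard3 and the start of Nrp1 there were 746 kb with 2 boundaries, 1 of them Strong.

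Plxna1, a signalling partner of neuropilins, lies on chromosome 6 (89316314 to 89362620, − strand, 46.3 kb). It lay in the shortest interval of the 10. Its start was 7.38 kb from a Strong intergenic boundary (89370001 to 89375000) scored 0.559, at or above 52.6% of the list, and its end was 11.3 kb from a Weak boundary (89300001 to 89305000) scored 0.237. The interval of 65.0 kb belonged to the 10 of 7415 that were this short or shorter, and Plxna1 was its only protein-coding start and filled 71.2% of it. With Strong boundaries alone, the interval around Plxna1 would be 445 kb long.

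Of the ligand genes, Sema3a encodes a secreted repellent for axons that carry Nrp1. It lies on chromosome 5 (13125414 to 13602565, + strand, 477 kb) within 1120 kb free of boundaries, an interval longer than or as long as 98.0% of all intervals. The flanking boundaries were both Strong, scored 1.33 at 595 kb upstream and 0.719 at 525 kb downstream, the latter 47.4 kb past the gene end. No other protein-coding gene started in between, although 12 other annotated genes did: 7 records of the GENCODE class TEC, whose status awaits experiments, 4 processed pseudogenes and 1 microRNA gene. The upstream boundary (12525001 to 12530000) lay in an intron of Sema3d, another class 3 semaphorin, 142 kb from that gene's start. Sema3e, on the other side, began 423 kb past the end of Sema3a, and 2 boundaries separated them, the Strong one scored 0.719 and a Weak one scored 0.219. The starts of Sema3d, Sema3a and Sema3e were therefore in 3 different intervals, of 1945, 1120 and 400 kb.

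Sema3f, the repellent ligand that acts through Nrp2, lies on chromosome 9 (107681500 to 107710475, − strand, 29.0 kb) and shared its interval with 16 other protein-coding starts. Its nearest boundary (107870001 to 107875000, Strong, 0.838) was 159.5 kb upstream, in exonic sequence of Rbm6, whose start lay inside that boundary. The other flank, 190.5 kb downstream of the start (107515001 to 107520000), scored 2.84, at or above 99.6% of the list, and overlapped an exon of Cacna2d2, a calcium channel subunit gene. Among the genes in this interval of 350 kb was Sema3b, 101 kb from Sema3f, so that these class 3 semaphorins were not separated by any boundary of the list. Gnai2 and Gnat1, which encode G protein alpha subunits, started 75.1 and 30.8 kb from Sema3f. The other protein-coding starts were those of Tmem115, Cyb561d2, Nprl2, Zmynd10, Rassf1, Tusc2, Hyal2, Hyal1, Naa80, Hyal3, Ifrd2, Slc38a3 and Rbm5, which include a run of hyaluronidase genes.

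Slit1, a secreted repellent for axons with Robo receptors, lies on chromosome 19 (41600257 to 41743665, − strand, 143 kb). It was the only gene of the 10 with a boundary wholly inside its record. This Weak boundary (41620001 to 41625000, score 0.326) was 119 kb into the gene and 19.7 kb from its end, and overlapped coding exon 25 of the 37 exons of the transcript with the longest coding sequence. The boundary before the gene was Strong, scored 1.07, lay 36.3 kb from the start and overlapped an exon of Arhgap19. The interval of 155 kb between them took in 82.7% of Slit1 and no other protein-coding start. An annotated shorter transcript of Slit1 begins 11.5 kb from the inner boundary.

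Kirrel2, an immunoglobulin adhesion protein by which like olfactory axons hold together, lies on chromosome 7 (30447534 to 30457690, − strand, 10.2 kb) in the midst of other genes. Its nearest boundary (30550001 to 30555000, Strong, 0.707) was 92.3 kb upstream and overlapped exons of Proser3 and Hspb6. The other (30275001 to 30280000, Strong, 0.654) was 178 kb downstream, in exonic sequence of Wdr62. The interval of 270 kb held 16 protein-coding starts. Next to Kirrel2, on the opposite strand and only 625 bases away, started Nphs1, which encodes nephrin, a related adhesion protein of the kidney filter. The other protein-coding starts were those of Thap8, Wdr62, Clip3, Alkbh6, Syne4, E130208F15Rik, Sdhaf1, Lrfn3, Tyrobp, Hcst, Nfkbid, Aplp1, Prodh2 and Arhgap33. Tyrobp and Hcst, adaptor proteins of immune cells, started 43.9 and 37.8 kb from Kirrel2 with no boundary between.

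The 250 bases before the start of Kirrel2, which lie in the gap between it and Nphs1, are shown because these divergent genes shared an interval; capitals would mark a GC box, and there was none.
Kirrel2 (chr7:30457691-30457940, - strand): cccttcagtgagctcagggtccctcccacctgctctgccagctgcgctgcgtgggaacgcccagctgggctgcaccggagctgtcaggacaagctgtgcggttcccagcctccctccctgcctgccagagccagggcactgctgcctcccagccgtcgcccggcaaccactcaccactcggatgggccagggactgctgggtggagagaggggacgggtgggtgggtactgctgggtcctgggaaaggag

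The receptor Epha5 and the ligand Efna5, a repulsive pair in axon sorting, both lay in very long intervals but at opposite positions in them. Epha5, on chromosome 5 (84054761 to 84417382, − strand, 363 kb), started 362 kb from the nearest boundary. That boundary (84050001 to 84055000, Strong, 0.775) coincided with the gene's other end and overlapped the last 240 bases of the gene record. These bases are untranslated exon sequence of an annotated transcript but not of the one with the longest coding sequence. Upstream of the start, 898 kb passed before a Weak boundary scored 0.300, and the whole interval measured 1260 kb. Efna5, on chromosome 17 (62604184 to 62881317, − strand, 277 kb), instead had its start 3.68 kb from a Strong intergenic boundary (62885001 to 62890000) scored 0.919. Its interval reached 936 kb downstream to a Weak boundary scored 0.380, 659 kb past the end of the gene. Each of these genes was the only protein-coding start of its interval, and filled 28.8% (Epha5) and 29.5% (Efna5) of it. With Strong boundaries alone, the interval of Efna5 would be 3290 kb and that of Epha5 1940 kb.

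Ncam1, the neural cell adhesion molecule, lies on chromosome 9 (49502136 to 49798925, − strand, 297 kb) and was framed almost exactly by boundaries. The boundary before its start (49800001 to 49805000) was 1.08 kb away, Weak and scored 0.289, and the boundary after its end (49490001 to 49495000) was 7.14 kb away, Strong and scored 2.29, at or above 98.2% of the list. Ncam1 filled 97.3% of its interval of 305 kb, and no other protein-coding gene started there. It was the only gene of the 10 with both ends within 10 kb of a boundary, where 4.66% of protein-coding genes had both. That share also counts short genes whose start and end lie near the same boundary, and none for long genes is given here. Beyond the downstream boundary, Ttc12 started 3.78 kb from it. The closeness of the start to a boundary rests on the Weak call: the nearest Strong boundary to the start of Ncam1 was the one past the gene end, 304 kb away.

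Of the 10 genes, 8 were the only protein-coding start in their interval: Nrp1, Nrp2, Plxna1, Sema3a, Slit1, Epha5, Efna5 and Ncam1. Among 20836 protein-coding genes with a start between boundaries, 8.85% were alone in this sense, with a median of 6 protein-coding starts per gene's interval. Length moves with this count. The median length was 144 kb for the 10 genes and 17.6 kb for all protein-coding genes, and of those at least 100 kb long 37.4% were alone, as were all 7 of the 10 that reach this length. The shorter genes were Plxna1, which was alone, and Sema3f and Kirrel2, which were not. The part of length in the count was not tested. With Strong boundaries only, 6 of the 10 were alone, beside 3.31% of protein-coding genes of any length, and no share for long genes is given here. Nrp1 then shared its interval with 1 other protein-coding start and Slit1 with 2. This count was chosen after the intervals were seen.

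**Figure D3:**
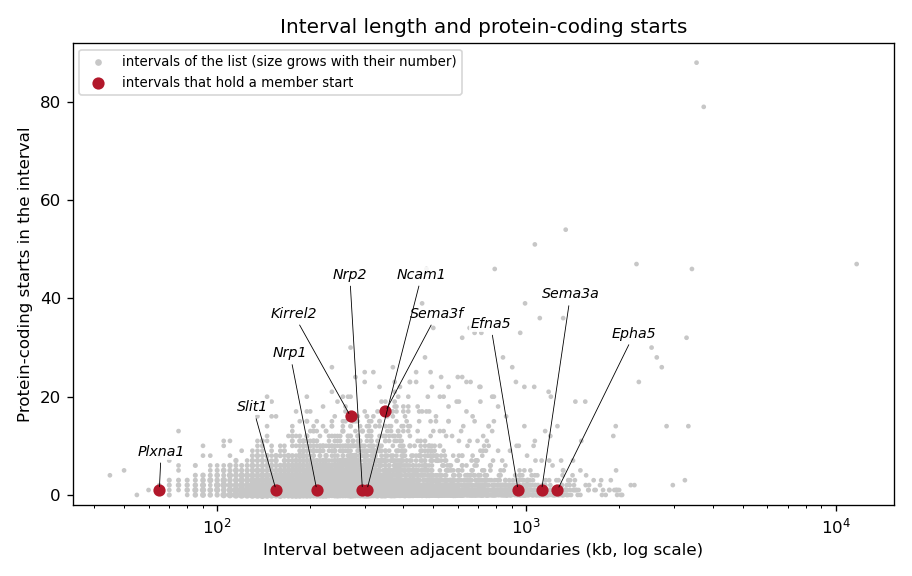
Interval length in kb (x, log scale) is plotted against the number of protein-coding starts in the interval (y). Grey points are the intervals of the list and red points the 10 that hold a start of the named genes; 8 of these sit at 1 protein-coding start, and those of Kirrel2 and Sema3f at 16 and 17.

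A boundary overlapped the record of 2 of the 10, Slit1 and Epha5, and 15.5% of all protein-coding genes, so the count was near the background. Of protein-coding genes at least 100 kb long 47.5% had one, and of the 7 such genes here these 2.

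The boundaries on both sides of the 10 starts were 20 different ones, 14 Strong and 6 Weak, with a median score of 0.735 where the whole list had 0.520 and 51.8% Strong. The whole list is not limited to boundaries beside a protein-coding start, and no values for both flanks of all such starts are given here. The nearest boundary was Strong for 9 of the 10, the exception being Ncam1, and for 62.9% of protein-coding starts. Its median score was 0.807 for the 10 genes and 0.668 for all protein-coding starts. The nearest boundary lay upstream for 8 of the 10, all but Sema3a and Epha5, and for 50.5% of protein-coding starts. Among 2480 protein-coding genes at least 100 kb long it lay upstream for 1575 and downstream for 829, and 76 started inside a boundary. Of the 7 genes here of that length it lay upstream for 5.

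CTCF, the insulator protein, binds a motif whose 12-letter core consensus was searched in these 20 boundaries on both strands. A match lay inside 2 of them, and 6.27% of all boundaries held one; within 10 kb it was 3 of 20 and 23.1% of all boundaries. The matches are shown, 12 bases of flank on each side, 5′ to 3′ along the strand of the match, with the core in capitals, because each lies downstream of a start: at the boundary downstream of Nrp2, near the inner boundary of Slit1 (4.68 kb from it) and in the boundary past the end of Ncam1.
Nrp2 (chr1:62986414-62986449, - strand): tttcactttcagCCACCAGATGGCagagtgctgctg
Slit1 (chr19:41629669-41629704, + strand): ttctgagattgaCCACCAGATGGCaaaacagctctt
Ncam1 (chr9:49494108-49494143, + strand): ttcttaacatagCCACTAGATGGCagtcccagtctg

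Read along the consensus, all 3 matches pointed toward the start of the named gene. No share over all boundaries stands beside this direction, and the match near Slit1 lay outside its boundary. Whether the direction is particular to these genes was not tested. The match in the boundary past the end of Ncam1, the highest-scored of the 3 boundaries with a match nearby, lay 305 kb from the start of that gene. None of the 4 boundaries within 10 kb before a start held a match, nor was there any within 10 kb of them; this says only that these letters are absent there.

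The wider families were followed in a list of 90 guidance and adhesion genes, the 10 included. Starts within 10 kb of a boundary numbered 16 of 90 (17.8%), and 12 of the 80 others (15.0%), near the 12.5% of all protein-coding starts. In 15 of the 16 the boundary lay upstream; the exception was Dscam, an immunoglobulin adhesion gene with a boundary 0.752 kb inside its start. Over all protein-coding genes within 10 kb, 1110 had the boundary upstream, 871 downstream and 708 started in it. None of the 90 started inside a boundary, a count that allows a share of up to 3.33%, no lower than the 3.29% of all protein-coding starts.

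Beside Plxna1, the plexins that started close to a boundary were Plxna4 (6.81 kb, score 2.85), Plxna2 (8.22 kb, Weak, 0.316) and Plxnd1 (9.996 kb, 0.538). So 4 of 9 plexin genes were within 10 kb, beside 12.5% of all protein-coding starts, while Plxna3 on the X chromosome was 84.1 kb away. No plexin started within 5 kb, where 8.35% of all protein-coding starts did. Each family is small, and no family count was tested against these shares. Class 3 semaphorins held none of 7: Sema3g was nearest at 12.9 kb, and Sema3b, Sema3d, Sema3e and Sema3c lay at 89.2, 142, 145 and 216 kb. Ligand and receptor genes of the Slit system were mixed. Slit2 started 3.14 kb from a Weak boundary scored 0.440 and Robo2, a Slit receptor of olfactory axons, 3.18 kb from a Strong one scored 2.15, while Slit3 lay at 16.2 kb and Robo4, Robo3 and Robo1 at 56.9, 88.2 and 143 kb.

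Among Eph receptors 2 of 14 were close, Ephb1 (5.31 kb) and Epha10 (5.90 kb), and among ephrins Efna2 (4.48 kb, score 1.09) besides Efna5. These family counts stand beside the same 12.5% of all protein-coding starts. The Kirrel group had none of 4, with Kirrel3 at 19.1 kb, Kirrel at 20.3 kb and Nphs1 at 91.7 kb. Nfasc (3.20 kb, score 1.58), an adhesion gene of the axon initial segment, Sema6a (1.13 kb, 0.979) and the netrin receptor Unc5b (8.42 kb, Weak, 0.490) complete the close starts. Ncam2, the paralogue of Ncam1 that is known from subsets of olfactory axons, lay 156 kb from its nearest boundary in an interval of 830 kb, where it too was the only protein-coding start. The 5 farthest of the 90 were Sema3a (525 kb), Cntn3 (523 kb), Ephb6 (395 kb), Epha5 (362 kb) and Chl1 (236 kb).

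**Figure D4:**
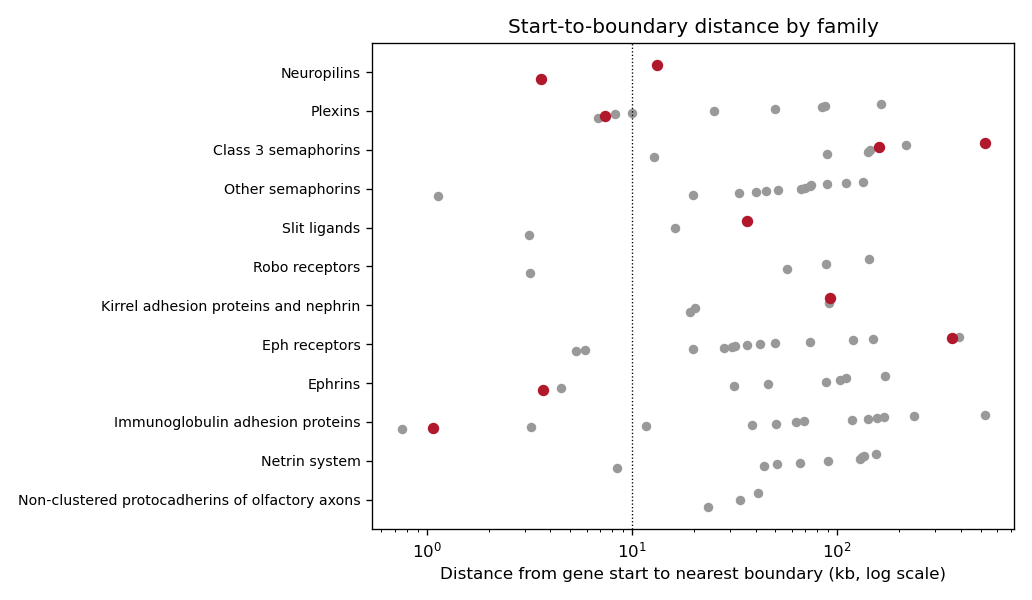
The distance from gene start to nearest boundary in kb (x, log scale) is plotted for the 90 genes by family (y), with the 10 named genes in red, the others in grey and a dotted line at 10 kb. Plexins show 4 of 9 points within 10 kb, that of Plxnd1 almost on the line, and class 3 semaphorins 0 of 7. Of all protein-coding starts 12.5% were within 10 kb.

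Of the 80 other genes, 34 (42.5%) were the only protein-coding start of their interval, beside 8.85% of all protein-coding genes. By length this was 29 of the 40 that are at least 100 kb long (72.5%, beside 37.4% of all protein-coding genes of that length) and 5 of the 40 that are shorter (12.5%, beside 5.12%). A boundary overlapped the record of 19 of the 80 (23.8%, beside 15.5%), and of 18 of the 40 long ones (45.0%, beside 47.5%).

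The gene of the list most like each of the 10, over 3 log values (start distance, interval length and gene length) among 89 candidates, was found as a description. Sema3a and Epha5 both had Cntn3, a contactin, at distances of 0.075 and 0.169 in these units. Nrp1 had Nfasc (0.117), Kirrel2 had Efna3 (0.056) and Sema3f had Plxnb2 (0.088). For Plxna1 it was Unc5b (0.216), for Slit1 Ntn1 (0.229), for Nrp2 Kirrel (0.302), for Ncam1 Sema6a (0.371) and for Efna5 Slit2 (0.417), the least alike of these pairs.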

How the data were processed

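In situ Hi-C with DpnII was run on 2 biological replicates of sorted Olfr16-expressing neurons. Per the series design text, the authors combined the contact lists of both replicates, built a contact matrix and called boundaries on it; the assembly is GRCm38, per the submitters' processing notes. The deposited score per boundary and its class word were used as given. How the score is computed, and which caller, window, aligner and filters were used, is not given in the sources used here.

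Gene records came from GENCODE M21, with 1 start per gene at its 5′ end; RefSeq records (GRCm38.p6) served as an alternative. Boundary ends were checked against the chromosome lengths of the reference genome. Distances run in bases from the start to the boundary edge. The 211 protein-coding genes that start outside the first to last boundary were left out of shares. Computations used Python 3.11.15, numpy 2.4.6, scipy 1.17.1 and pysam 0.24.0, and the distance code was tested on simulated data. Sequence windows before 2 of the starts are not reported here. No test was run: the list is 1 pooled call set without replicate values, and shares of all protein-coding genes serve as background.

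The genes and family lists were chosen with earlier results of these data known. The rule for naming took the 10 genes, protein-coding genes starting in their intervals, and, from the list, starts within 10 kb, the 5 farthest, the plexin A, class 3 semaphorin, Slit, Robo, Kirrel and NCAM genes and the most similar gene to each.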

Additional observations from a re-analysis of the deposited data

How the results depend on the processing

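The count of 4 starts within 10 kb was 3 within 5 kb, 5 within 25 kb, 6 within 50 kb and 0 when the start had to lie in the boundary. It was 3 with Strong boundaries only, which drops Ncam1, and 4 with any transcript start, with distance to the boundary midpoint or with RefSeq starts (RefSeq chosen after seeing the data). For the list of 90 the count of 16 became 0, 9, 25 and 43 at windows of 0, 5, 25 and 50 kb, 11 with Strong boundaries, 20 with any transcript start and 15 with RefSeq starts. The share of all protein-coding starts, 12.5%, became 3.29, 8.35, 24.8 and 44.3% at those windows, 7.94% with Strong boundaries and 16.7% with any transcript start. The median distance of the 10 genes, 24.8 kb, was 64.3 kb with Strong boundaries, 12.4 kb with any transcript start, 27.3 kb to midpoints and 23.0 kb with RefSeq starts; by transcript starts Sema3a moved to 250.4 kb and Slit1 to 11.5 kb. The median interval rose from 300 to 425 kb with Strong boundaries, and 6 of the 10 intervals grew. The 2 boundaries in gene records, in 2 genes, became 1 in 1 gene with Strong boundaries (Epha5) and 1 in 1 gene when the boundary had to lie wholly inside (Slit1). The count of genes alone in their interval went from 8 to 6 with Strong boundaries, and CTCF matches from 2 to 3 of 20 boundaries within 10 kb. No alternative that leaves out a replicate could be made, since the boundaries were called on both replicates combined. No paired analysis was possible because there is 1 group and the list holds no value per replicate. Positions are limited by the 5 kb width of the boundaries, and depth behind them is unknown.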
